A study of Caenorhabditis elegans with 36 samples.

Results

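RNA from transposable elements was compared between young adult Caenorhabditis elegans of the genotypes nip1_nip2_nip3 (the triple mutant) and nip2_nip3 (the double mutant). The members were the 3 RNA libraries of each genotype, 6 of the 36 samples of the series and 6 of its 20 RNA libraries, chosen by their genotype labels. The question was what the loss of nip1 adds once nip2 and nip3 are already mutated. Of 165 tested families, 2 were called different at an adjusted p under 0.05. RNA of the DNA transposon MIRAGE1 was 6.26-fold lower in the triple mutant, and RNA of the DNA transposon Turmoil2 was 3.13-fold higher. Both calls were lost when levels were scaled by library totals and in fits of the 6 libraries alone. The call of Turmoil2 also depended on which libraries were kept. The 95% interval of the fold change lay within 2-fold for only 73 families, so the uncalled families were not shown to be unchanged.

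The series examines candidate factors in the inheritance of RNA silencing between generations. Both groups carried the nip2 and nip3 mutations, and only the triple mutant carried the nip1 mutation as well. All worms were whole animals grown at 20 °C on HB101 bacteria. The labels used here do not give the alleles combined in the double and triple mutants, and they do not tie the nip names to genes, so the targeted genes were not checked. The RNA table counts repeat families and no genes. The comparisons also use 3 wild-type (wt) RNA libraries and 2 libraries of nip1_tb1601. This is a nip1 mutant named by its allele, with nip2 and nip3 unmutated by its label. The fit further held the single mutants nip2_tb1609 (3 libraries), nip3_qe17 (3) and nip3_qe20 (2). All 19 libraries fitted share in the estimate of the spread behind the p-values. The labels do not say whether replicates were grown as separate cultures, so the spread behind the p-values may be technical.

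Transposable elements are mobile DNA sequences. DNA transposons move by excision and reinsertion, Helitrons by rolling-circle replication, and retrotransposons by copying an RNA intermediate. In C. elegans, germline small RNAs bound by Argonaute proteins guide silencing of many of these elements, in the cytoplasm and on chromatin. Silencing that starts in one generation can be passed to the next through small RNAs, the nuclear Argonaute HRDE-1 and heterochromatin marks.

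The table holds 403 repeat families, of which 115 are simple, low-complexity or satellite repeats and 288 are transposable elements. Of the 288, 165 had enough counts to be tested, 123 did not, and 45 had no count in any of the 6 libraries. The 6 libraries held 35326 to 83374 estimated counts on transposable elements. Levels are normalised CPM, counts scaled to the same effective total of transposable element counts in every library, so each level is relative to the other families. In RNA from whole animals, fewer cells of a type and less RNA per cell cannot be told apart.

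In its make-up, replicate 1 of nip2_nip3 lay at the extreme of the 6 libraries. CELE45, a short interspersed element (SINE) of the tRNA-RTE type, took 61.4% of its transposable element counts, against 5.14% and 6.51% in nip2_nip3 replicates 2 and 3. In the triple mutant CELE45 took 11.2%, 40.1% and 28.3%. The simple repeat (CCCCAG)n made up 1.52% of all repeat counts in nip2_nip3 replicate 1 and 15.5% to 32.6% in the other 5 libraries. On log CPM across families, nip2_nip3 replicate 1 had Pearson correlations of 0.822 and 0.873 with replicates 2 and 3, which had 0.969 with each other. The 3 triple mutant pairs ranged from 0.925 to 0.967. With triple mutant replicate 2, nip2_nip3 replicate 1 had a correlation of 0.941. Such a make-up also occurred in other genotypes. CELE45 took 52.8% in nip3_qe20 replicate 2 and 47.7% in nip2_tb1609 replicate 1, with (CCCCAG)n at 0.478% and 6.82%. Families are not independent replicates, and these correlations are a description. Values without nip2_nip3 replicate 1 are given beside the results below where they change a call or a sign, or move a fold change by more than 0.2 on the log2 scale. Without it, 164 of the families were tested, 43 of them changed sign, and the median log2 fold change was 0.02.

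**Figure D1:**
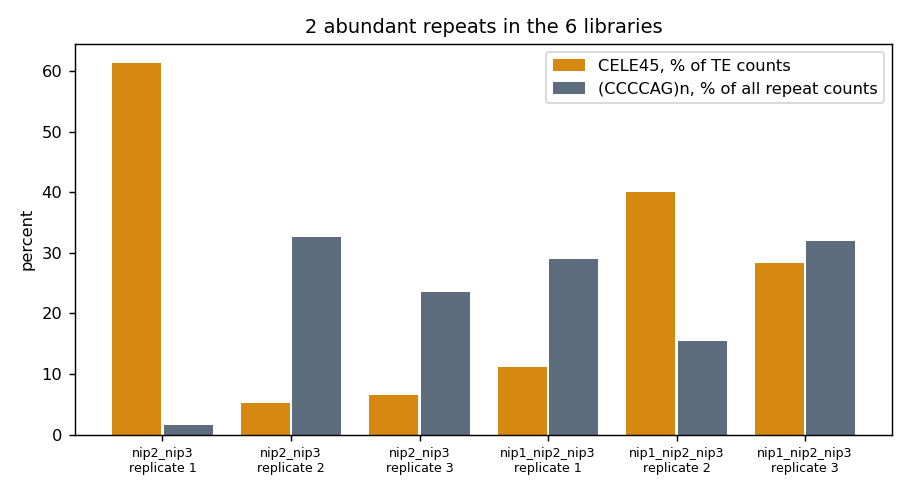
Share of CELE45 among transposable element counts and share of the simple repeat (CCCCAG)n among all repeat counts, in percent, for each of the 6 libraries. In nip2_nip3 replicate 1 CELE45 reaches 61.4% and (CCCCAG)n falls to 1.52%.

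Across all families, the edgeR quasi-likelihood test with Benjamini-Hochberg adjustment called 2 of 165 families at an adjusted p under 0.05, which is 1.21%. Turmoil2 was the 1 family called higher (0.606%) and MIRAGE1 the 1 called lower (0.606%). At an unadjusted p under 0.05 there were 9 of the 165 families, the 2 called ones among them, a share close to the 0.05 threshold itself. The log2 fold change (triple over double mutant) was positive for 78 families and negative for 87, with a median of -0.02. For 73 families the 95% interval of the fold change lay within 2-fold in both directions, and for 144 within 4-fold. For the other families, a difference beyond 2-fold could not be bounded at this depth and spread. The intervals are not adjusted for the number of families. Their SE is unstable for the smallest changes: CEMUDR2 had a log2 fold change of -0.00036 with an SE of 7.05.

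MIRAGE1 is a DNA transposon of the CMC superfamily, which takes its name from CACTA, Mirage and Chapaev elements. Its RNA was at 5939, 24178 and 14291 CPM in the 3 nip2_nip3 libraries. In the triple mutant it was at 2501, 2174 and 2408 CPM. The 2 groups did not overlap, and the double mutant libraries spread far more widely than the triple mutant ones. The lowest of the 3 double mutant libraries was replicate 1, in which CELE45 took most of the counts.

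The log2 fold change of MIRAGE1 was -2.65 (SE 0.42, n = 3 and 3), with an adjusted p of 0.00199 from edgeR's quasi-likelihood test. Its 95% interval ran from -3.54 to -1.75. The levels rest on 164, 80 and 104 counts in the triple mutant and 231, 1103 and 598 in the double mutant. MIRAGE1 was called with each of the 6 libraries left out, with log2 fold changes from -3.01 (without nip2_nip3 replicate 1) to -2.10 (without nip2_nip3 replicate 2). The call was lost with library totals in place of TMM scaling (adjusted p = 0.106) and in a fit of the 6 libraries alone (adjusted p = 0.121), with fold changes of -2.73 and -2.62.

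The other genotypes place these levels. MIRAGE1 stood at 1379, 1457 and 1269 CPM in wt and at 1836 and 1471 CPM in nip1_tb1601. In the 8 libraries of nip2_tb1609, nip3_qe17 and nip3_qe20, single mutants named by their alleles, it ranged from 781 to 3138 CPM. Among the 7 genotypes fitted, the nip2_nip3 libraries were thus the 3 highest. The highest single mutant library, nip3_qe17 replicate 3 at 3138 CPM, was above every triple mutant library. The other single mutant libraries, nip1_tb1601 included, lay at 781 to 1836 CPM, below every triple mutant library. Every triple mutant library was above every wt library, a difference that was not tested.

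MIRAGE1 has 51 annotated copies on 6 chromosomes, 50856 bases in all in ce11. Of these, 6 are longer than 5000 bases. Those at V 3325117 to 3330741, II 14687826 to 14693449 and II 1076026 to 1081644 lie in no annotated gene. The copy at IV 701905 to 707528 lies inside cutl-26, a cuticlin-like gene. The copy at IV 507687 to 513308 lies inside pig-1, which encodes a kinase of the MELK family that acts in asymmetric cell division. The copy at V 765783 to 771399 lies inside str-238, a predicted chemoreceptor gene. The table sums all copies, so the copies behind the difference were not resolved. Per kilobase of annotated copies, MIRAGE1 ranked 26th of the 165 families in nip2_nip3 (291 CPM per kilobase), 84th in the triple mutant (46.4) and 96th in wt (26.9).

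Turmoil2, a DNA transposon of the PIF-Harbinger superfamily, moved the other way. Its RNA was at 1693, 815 and 1250 CPM in the triple mutant and at 386, 482 and 335 CPM in nip2_nip3. Every triple mutant library was above every double mutant library. The log2 fold change was 1.65 (SE 0.34, n = 3 and 3), with a 95% interval from 0.93 to 2.36 and an adjusted p of 0.0148 (edgeR quasi-likelihood).

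Turmoil2 counts were low, at 111, 30 and 54 in the triple mutant and 15, 22 and 14 in the double mutant. The call was lost without triple mutant replicate 1 (adjusted p = 0.136, log2 fold change 1.36), without nip2_nip3 replicate 1 (adjusted p = 0.0904, 1.64) and without nip2_nip3 replicate 3 (adjusted p = 0.124, 1.53), all by edgeR. It was also lost with library totals (adjusted p = 0.206) and in a fit of the 6 libraries alone (adjusted p = 0.196), while the fold change stayed positive in each.

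In the other genotypes Turmoil2 fell at both ends of this range. The wt libraries had 1174, 1366 and 1852 CPM, and nip3_qe20 had 1435 and 1879 CPM. The nip3_qe17 libraries had 539, 816 and 1032 CPM. At the low end, nip1_tb1601 had 459 and 283 CPM and nip2_tb1609 had 399, 263 and 467 CPM. The triple mutant therefore overlapped wt, nip3_qe17 and nip3_qe20, whereas nip2_nip3 overlapped the nip1 and nip2 single mutants.

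Turmoil2 has 1 annotated copy, 6999 bases on the minus strand of chromosome V from 17641680 to 17648678 in ce11. It lies inside fbxa-192, which encodes a predicted F-box protein. The strand used in counting is not given, so RNA of the element and RNA of its host gene over the same bases cannot be told apart. Per kilobase it ranked 34th of 165 in the triple mutant (179 CPM per kilobase), 79th in nip2_nip3 (57.3) and 27th in wt (209).

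**Figure D2:**
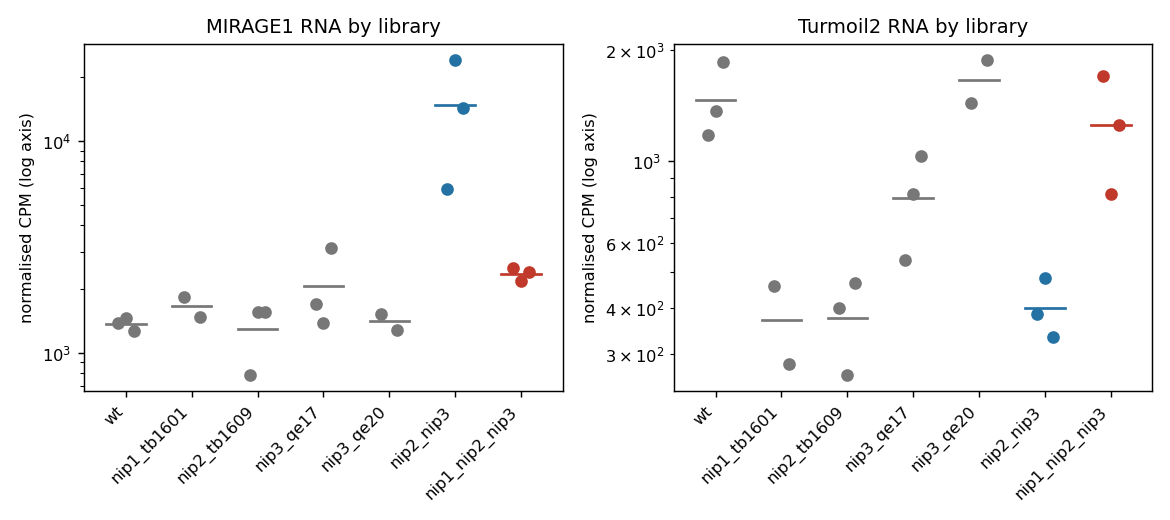
Normalised CPM (log axis) of MIRAGE1 and Turmoil2 RNA in each of 19 libraries of 7 genotypes, with points for libraries and lines for means. For MIRAGE1 the 3 nip2_nip3 libraries (5939 to 24178 CPM) lie above all others; for Turmoil2 they (335 to 482 CPM) lie below the 3 triple mutant libraries (815 to 1693 CPM).

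Loss of nip1 was then followed with nip2 and nip3 unmutated, by comparing nip1_tb1601 with wt, which share no library with the first comparison. The edgeR quasi-likelihood test called 2 of 165 families (1.21%), 1 lower and 1 higher, and 15 of the 165 had an unadjusted p under 0.05. Turmoil2 was lower in nip1_tb1601, by 3.88-fold, with a log2 fold change of -1.96 (SE 0.38, n = 2 and 3, adjusted p = 0.0184). That call was lost without either nip1_tb1601 library (adjusted p = 0.0799 and 0.287), without wt replicate 3 (0.0897) and with library totals (0.375). MIRAGE1 had a log2 fold change of 0.27 (SE 0.46, adjusted p = 0.871), with a 95% interval from -0.69 to 1.24.

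The family called higher was CER6-I_CE, the internal part of a Gypsy-type LTR retrotransposon. It had 0 counts in all 3 wt libraries and 216 and 151 CPM in nip1_tb1601, at least 8.16-fold higher when the wt group as a whole is set to a floor of 3 counts (edgeR adjusted p = 0.0278). Leaving out any 1 of the 5 libraries ended the call, and a fit of these 5 libraries alone did not call it. In the background already lacking nip2 and nip3, CER6-I_CE stood at 77.1, 241 and 191 CPM, and in the triple mutant at 244, 54.4 and 324 CPM. These 2 groups overlapped widely, with a log2 fold change of 0.31, or -0.0031 without nip2_nip3 replicate 1.

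Whether the change seen with the nip1 mutation differed between the 2 backgrounds was tested directly. The labels do not give the nip1 allele of the triple mutant, so background, nip1 allele and strain cannot be told apart. Tested was the triple-over-double change minus the nip1_tb1601-over-wt change. This difference was called for 2 of 165 families (1.21%) by edgeR's quasi-likelihood test. For Turmoil2 it was 3.60 on the log2 scale (SE 0.51, adjusted p = 0.000522), from a fall with nip2 and nip3 unmutated to a rise in their absence. It was called with each of the 11 libraries left out and in the other alternatives that tested Turmoil2. For MIRAGE1 the difference was -2.92 (SE 0.61, adjusted p = 0.0170). Among the settings without a replicate block, that call was lost without nip1_tb1601 replicate 1 (adjusted p = 0.130), without wt replicate 3 (0.0614) and with library totals (0.256). For CER6-I_CE the difference missed the threshold (adjusted p = 0.102), and its fitted size rests on wt libraries at 0.

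**Figure D3:**
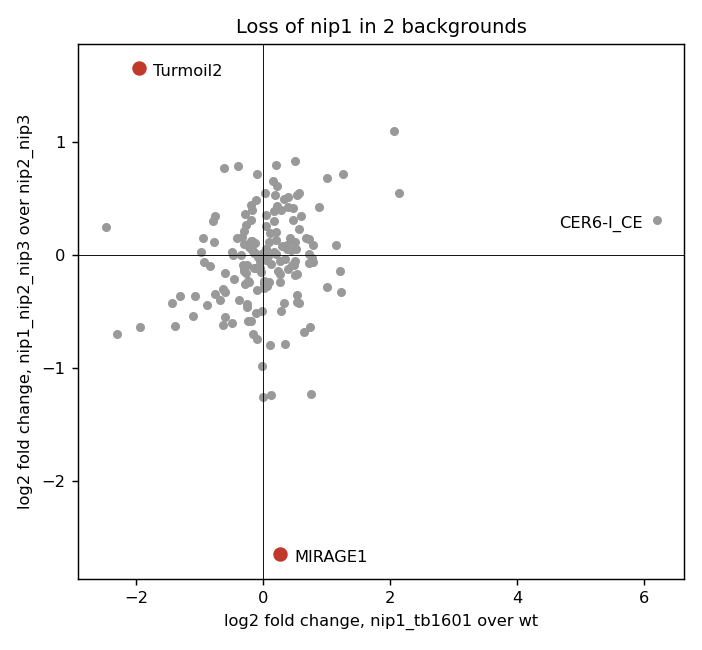
Log2 fold change of each of 165 families for nip1_nip2_nip3 over nip2_nip3 (vertical) against nip1_tb1601 over wt (horizontal); red points are the 2 families called in the difference between these changes. Turmoil2 lies at -1.96 and 1.65, MIRAGE1 at 0.27 and -2.65; the position of CER6-I_CE on the horizontal axis rests on wt libraries at 0.

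Small RNAs at these families were available for adults of wt, nip2nip3 and nip3_qe17, and no small RNA library of the triple mutant was analysed here. MIRAGE1 small RNAs stood at 299 and 349 CPM in wt and at 140, 154 and 161 CPM in nip2nip3, a ratio of means 2.14-fold lower. In nip3_qe17 they were lower still, at 68.0, 81.7 and 80.2 CPM. The 3 genotypes did not overlap, and MIRAGE1 RNA was high in nip2_nip3 but at 1704, 1380 and 3138 CPM in nip3_qe17.

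Turmoil2 small RNAs stood at 281 and 278 CPM in wt and at 825, 888 and 835 CPM in nip2nip3, a ratio of means 3.04-fold higher. In nip3_qe17 they were at 190, 189 and 185 CPM. The nip2nip3 libraries were thus highest in Turmoil2 small RNA and among the lowest in Turmoil2 RNA. Over the 165 families the median ratio of nip2nip3 to wt small RNA was 0.814, and 59 families had a ratio above 1. These values describe separate libraries, and whether the small RNAs take part in the RNA differences was not tested.

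At the host genes, small RNAs at cutl-26 were at 0 and 0.469 CPM in wt and at 14.3, 11.3 and 13.6 CPM in nip2nip3. At pig-1 they were at 193 and 170 CPM in wt and 152, 143 and 146 CPM in nip2nip3. At fbxa-192 they were at 118 and 103 CPM in wt and 140, 141 and 133 CPM in nip2nip3. The double mutant was above wt at cutl-26 and fbxa-192 and below it at pig-1, with no overlap at any of the 3 genes. The nip3_qe17 libraries lay on the other side of wt at pig-1 (233, 234 and 204 CPM) and at fbxa-192 (64.5, 77.9 and 66.6 CPM), and at cutl-26 they had 0.175, 0.0948 and 0.0916 CPM. At str-238 all 8 libraries were low: both wt libraries had 1.41 CPM, the nip2nip3 libraries 1.76, 1.74 and 2.56 CPM, and the nip3_qe17 libraries 0.702, 1.33 and 1.28 CPM. F23A7.5, which holds shorter MIRAGE1 copies on chromosome X, had 2.43 and 3.64 CPM in wt. The nip2nip3 libraries had 0.321, 1.02 and 0.562 CPM there, and the nip3_qe17 libraries 0.702, 0.758 and 0.824 CPM. Both mutants were below wt at F23A7.5.

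**Figure D4:**
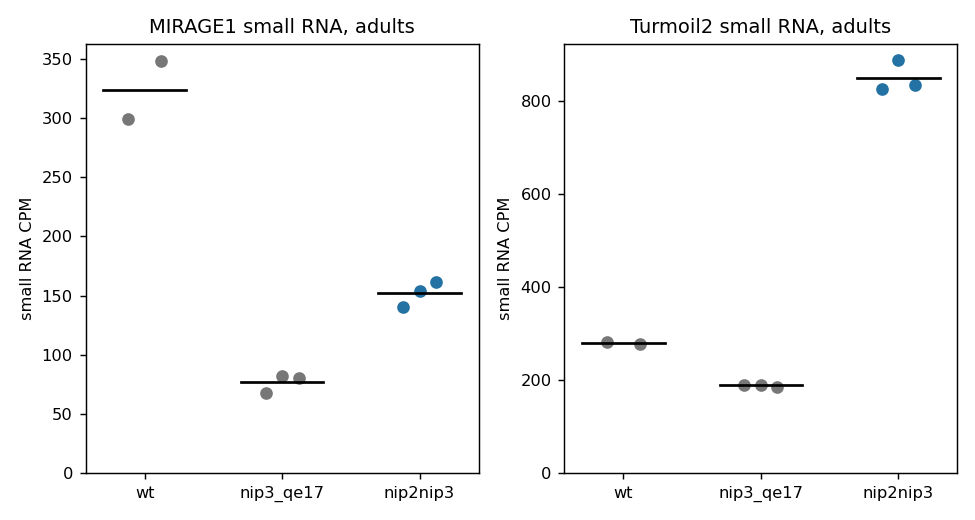
Adult small RNA CPM at MIRAGE1 and Turmoil2 in 2 wt, 3 nip3_qe17 and 3 nip2nip3 libraries, with points for libraries and lines for means. In nip2nip3, MIRAGE1 small RNAs lie at 140 to 161 CPM, below wt, and Turmoil2 small RNAs at 825 to 888 CPM, above wt.

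The remaining families are given by class, none of them called. Among DNA transposons of the CMC class, 5 of 6 tested families had negative log2 fold changes, MIRAGE1 among them, with a class median of -0.23 beside -0.02 over all families. Without nip2_nip3 replicate 1, 4 of the 6 were negative and that class median was -0.30. Chapaev-1_CE had a log2 fold change of -0.30, which became 0.17 without that library, where it stood at 37174 CPM against 18961 and 16538 in replicates 2 and 3. Chapaev-2_CE had a log2 fold change of -0.14. Mirage1_CB, a family named from Caenorhabditis briggsae by its suffix, was at 152, 136 and 92.6 CPM in the triple mutant and 77.1, 395 and 191 CPM in the double mutant. These groups overlapped, with a log2 fold change of -0.79 (SE 0.74), or -1.16 without nip2_nip3 replicate 1.

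The Harbinger class held only Turmoil2 and Turmoil1. Turmoil1 was at 16348, 56281 and 43597 CPM in the triple mutant and 69078, 45725 and 38118 CPM in nip2_nip3. The groups overlapped, and its log2 fold change was -0.40 (SE 0.37), opposite in sign to that of Turmoil2. Without nip2_nip3 replicate 1 it was -0.10 (SE 0.41).

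Tc/Mariner elements, cut-and-paste transposons that include the most active mobile elements of C. elegans, showed 18 positive and 15 negative fold changes, with a median of 0.06. Without nip2_nip3 replicate 1 these were 16 positive and 17 negative, with a median of -0.0045. Tc1 itself was at 518, 435 and 810 CPM in the triple mutant and 1388, 899 and 550 CPM in the double mutant. These groups overlapped, and the log2 fold change of -0.68 (SE 0.30) was not called (edgeR adjusted p = 0.777) and became -0.30 without nip2_nip3 replicate 1. Tc3 had a log2 fold change of -0.09 with a 95% interval from -0.48 to 0.30 that lies within 2-fold in both directions.

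The hAT class had 13 positive and 6 negative changes with a median of 0.09, and the MuDR class 3 positive and 5 negative with a median of -0.21. Among the other DNA families, 16 were positive and 21 negative, and 24 of the 37 had intervals within 2-fold. Without nip2_nip3 replicate 1, hAT had 14 positive and 5 negative changes (median 0.17) and MuDR 2 and 6 (median -0.13). The other DNA families then had 17 positive and 20 negative. In that setting 7 hAT, 1 MuDR and 9 other DNA families changed sign. For CELE2, one of the families with the most counts there, the log2 fold change was 0.01, with a 95% interval from -0.40 to 0.42.

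Among LTR retrotransposons, the Pao class had 8 positive and 11 negative changes with a median of -0.09, and the Gypsy class 4 positive and 5 negative with a median of -0.33. Without nip2_nip3 replicate 1, the Pao class had 13 positive and 5 negative changes with a median of 0.09, and the Gypsy class 3 positive and 6 negative with a median of -0.58. CER9-I_CE, of the Pao class, was at 14579, 25600 and 21671 CPM in the triple mutant and 15708, 35686 and 22560 CPM in the double mutant. Both groups lay far above wt, at 894, 1275 and 939 CPM, and above nip1_tb1601, at 796 and 905 CPM. High levels were not particular to them. The nip3_qe17 libraries had 921, 14052 and 28433 CPM, nip3_qe20 had 18911 and 7028, and nip2_tb1609 had 847, 1927 and 1920. Between the triple and double mutant the log2 fold change was -0.26 (SE 0.71), with an interval from -1.77 to 1.25. It was -0.49 without nip2_nip3 replicate 1. CER1, a Gypsy element that forms particles in the germline, had a log2 fold change of -0.50 (SE 0.40), or -0.81 (SE 0.36, edgeR adjusted p = 0.310) without nip2_nip3 replicate 1.

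CER17-I_CE, also of the Pao class, varied widely within both groups. It stood at 20831, 3805 and 12572 CPM in the triple mutant and at 334, 15388 and 6954 CPM in the double mutant. Its low libraries in each group were those with the largest CELE45 share, triple mutant replicate 2 and nip2_nip3 replicate 1. The log2 fold change was 0.71 (SE 1.17), or 0.17 (SE 1.11) without nip2_nip3 replicate 1. With the log2 CELE45 share as a covariate and CELE45 itself removed from the counts, it was 3.07 (SE 0.58, edgeR adjusted p = 0.00303), and 7 families were called in place of 2. These were MIRAGE1, Turmoil2, CER17-I_CE, CER17-LTR_CE, CER16-LTR_CE, TC4 and PAL8B_CE.

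LINE elements, which are retrotransposons without long terminal repeats, had 7 positive and 7 negative changes with a median of -0.02, or 8 positive and 6 negative without nip2_nip3 replicate 1, with a median of 0.12. LINE2C1_CE was at 274, 136 and 255 CPM in the triple mutant and 488, 482 and 382 CPM in the double mutant. The groups did not overlap, and the log2 fold change of -0.98 (SE 0.31) was not called (edgeR adjusted p = 0.316). RTE-1 had a log2 fold change of -0.04 (SE 0.34), or -0.24 without nip2_nip3 replicate 1.

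Helitrons had 4 positive and 6 negative changes with a median of -0.05. Without nip2_nip3 replicate 1 they had 5 positive and 5 negative, with a median of -0.02, and 5 of the 10 changed sign. Helitron1_CE was at 5124, 5326 and 5487 CPM in the triple mutant and 4679, 2740 and 3059 CPM in nip2_nip3. The groups did not overlap, and the log2 fold change was 0.61 (SE 0.23, edgeR adjusted p = 0.660), or 0.90 (SE 0.25, adjusted p = 0.143) without nip2_nip3 replicate 1. The SINE class held only CELE45, whose counts were 5303, 21092 and 13473 in the triple mutant and 51196, 2032 and 2300 in the double mutant, with a log2 fold change of -0.55 (SE 1.15). The sign rests on nip2_nip3 replicate 1: without it the log2 fold change was 2.71 (SE 1.07, edgeR adjusted p = 0.310).

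**Figure D5:**
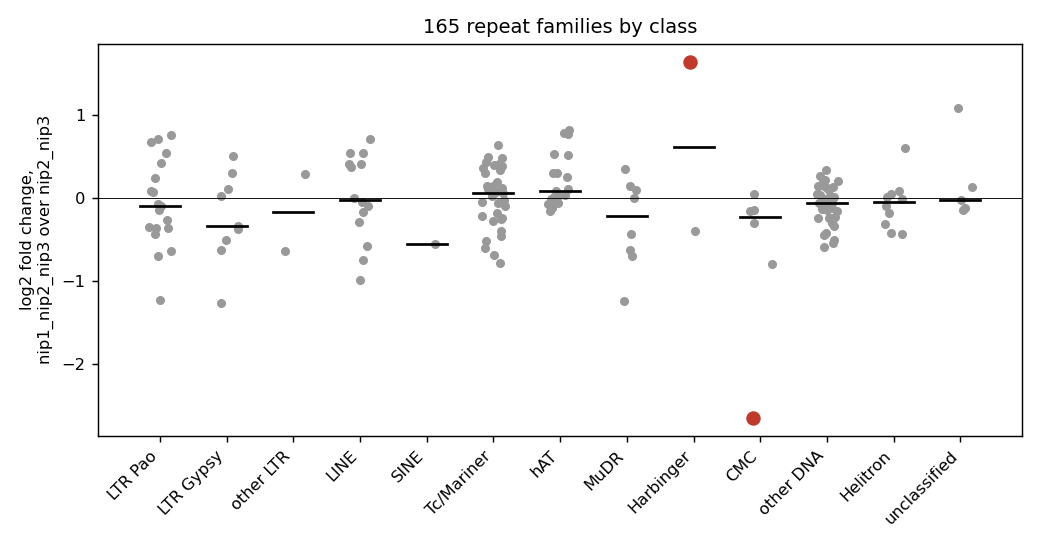
Log2 fold change of nip1_nip2_nip3 over nip2_nip3 for each of 165 tested families by class; black lines are class medians and red points the 2 called families. All families other than MIRAGE1 (-2.65) and Turmoil2 (1.65) lie between -1.26 and 1.09.

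Without regard to calls, the groups did not overlap for 5 families higher in the triple mutant (3.03% of 165) and 4 lower (2.42%). With 3 against 3 libraries, complete separation has a two-sided exact permutation p of 0.1, so it does not by itself set a family apart. The higher families were Turmoil2, TIR9TA1B_CE, Helitron1_CE, Mariner2_CE and DNA8-3_CB. The lower ones were MIRAGE1, LINE2C1_CE, LONGPAL3 and GYPSY4-I_CB. Apart from MIRAGE1 and Turmoil2 their adjusted p-values by edgeR ran from 0.316 to 0.942. They belong to the hAT, Helitron, Tc/Mariner, LINE, MuDR and Gypsy classes, so no class held more than 2 of them.

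As shares of all transposable element counts, no class separated the 2 genotypes beyond the spread of the libraries. SINE counts took 26.5% ± 14.5 (SD, n = 3) in the triple mutant and 24.4% ± 32.1 (n = 3) in nip2_nip3. Tc/Mariner counts took 13.8% ± 3.02 and 13.8% ± 5.50. CMC counts took 2.57% ± 0.429 and 4.08% ± 1.77. The exact two-sided permutation tests over the 13 classes gave p-values from 0.4 to 1, and 3 against 3 libraries cannot go below 0.1. With CELE45 left out of the totals, CMC took 3.53% ± 0.292 and 5.46% ± 0.824, with an exact permutation p of 0.1, the smallest possible. The CMC share includes the counts of MIRAGE1, so it is not separate from the call of that family.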

How the data were processed

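RNA of young adults was sequenced, and the authors deposited estimated counts per repeat family, with fractions where a read was shared, as the values show. Per the submitters' processing notes, reads were aligned with STAR to ce11, small RNA reads were trimmed with cutadapt, featureCounts gave the counts and DESeq2 is named for the tests. Versions, the treatment of multiply mapped reads and the strand setting are not given in the sources used here. Adult small RNA tables of genes and families also hold expected counts as deposited.

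Counts were rounded to whole numbers. The 19 RNA libraries of 7 genotypes were fitted together with edgeR 4.0.16 in R 4.3.3 (filterByExpr, TMM scaling, quasi-likelihood F-test, Benjamini-Hochberg adjustment over all 165 families tested, called under 0.05), leaving out the single nip1_nip2 library. Satellite, low-complexity and simple repeats did not enter the tests. SEs are the size of the log2 fold change over the square root of F. Class shares were compared with an exact permutation test. Small RNA CPM use TMM factors computed on the adult gene counts. Gene positions came from an annotation of WBcel235, the assembly that ce11 names. Files were read with data.table (release 1.17.8), and the tests were also run on counts simulated from the fitted means and spreads. Those counts held no library of outlying make-up such as nip2_nip3 replicate 1, so they cannot show how the tests behave with one.

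Families eligible to be named were those called whose mean reached 20 counts and whose groups did not overlap, those of smallest p up to 10 per direction, the 2 with the most counts per class, Tc, CER, Turmoil, Mirage and Chapaev families, and the 3 smallest p per direction for the difference between nip1 effects. Not all of these are named in the text. CEMUDR2, DNA8-3_CB and CER17-LTR_CE were named after their values were seen. The members, lists and this rule were chosen with earlier results of these data known.

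Alternatives were DESeq2 1.42.0, RLE scaling, library totals, filters of any count above 0 or a mean of 50 counts, only the groups compared, all repeat families, the replicate number as a block in a fit of only the groups compared, the log2 of a class share, and each library left out. CELE45 left out, its share as a covariate with CELE45 also left out, and the block with all 7 genotypes fitted were added after the data were seen. Floors cover counting error only.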

Additional observations from a re-analysis of the deposited data

Results flagged for a closer look

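The change seen with the nip1 mutation differed between the 2 backgrounds for 2 families, by a direct test of the difference on the log2 scale. The nip1 allele of the triple mutant is not given, so background, nip1 allele and strain cannot be told apart. For Turmoil2 the triple-over-double change exceeded the nip1_tb1601-over-wt change by 3.60 (SE 0.51, edgeR quasi-likelihood adjusted p = 0.000522). For MIRAGE1 the difference was -2.92 (SE 0.61, adjusted p = 0.0170), a call lost under 4 alternatives: without nip1_tb1601 replicate 1 (0.130), without wt replicate 3 (0.0614), with library totals (0.256) and with the replicate block in a fit of only the groups compared (0.126).

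The single nip1_nip2 library entered no comparison, and its levels are values of 1 library. Of the 165 families, 62 (37.6%) stood above all 3 wt libraries there and 39 (23.6%) below all 3, so a level outside wt is common. Among these, CER9-I_CE stood at 25919 CPM against 898 to 1281 in wt, and CEMUDR1 at 18116 CPM against 5285 to 6375. The families called in a comparison are given next. CER6-I_CE stood at 207 CPM there (9 counts), while all 3 wt libraries were at 0. MIRAGE1 stood at 1911 CPM, against 1275 to 1464 CPM in wt under the scaling that includes this library. Turmoil2 stood at 1151 CPM, just below the wt libraries at 1180 to 1862 CPM.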

How the results depend on the processing

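For triple against double mutant, 2 families were called under RLE scaling, no low-count filter, all repeat families, CELE45 left out and DESeq2. The count was 0 with library totals, 0 with only the groups compared, 0 with the replicate block in a fit of only the groups compared, 1 with a mean of at least 50 counts (Turmoil2 was not tested) and 7 with the CELE45 share as a covariate and CELE45 left out. It was 1 to 2 with a library left out. For nip1_tb1601 against wt, the count of 2 became 0 with library totals, 0 with a mean of at least 50, 0 with the block in only the groups compared, 28 with only the groups compared and 4 with that covariate, and 0 to 1 with a library left out. The 28 came from a fit with its own low-count filter, so they are not a share of the same 165 families. CER17-I_CE led them (log2 fold change 1.23), Turmoil2 was among them (-1.96) and CER6-I_CE was not. For the difference of nip1 effects the count of 2 became 1 with library totals, 1 with a mean of at least 50, 1 with the block in only the groups compared and 1 to 2 with a library left out. DESeq2 called 3 families there. The causes were not tested.

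Same-numbered libraries of the triple and double mutant had correlations of their deviations from the group means of -0.578, -0.481 and 0.153. Within so small a group these deviations depend on one another. The correlations therefore cannot decide whether the numbers pair the samples. In the fit of only the groups compared, which alone ended both calls, the block gave an adjusted p of 0.995 for both MIRAGE1 and Turmoil2, and of 0.126 for Turmoil2 in nip1_tb1601 and for the MIRAGE1 difference. With all 7 genotypes fitted, the block left 2 calls in each comparison, with adjusted p-values for triple against double mutant of 0.00484 for MIRAGE1 and 0.0282 for Turmoil2 (edgeR).

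MIRAGE1 and Turmoil2 kept their direction in each alternative that tested them. CER16-LTR_CE (-1.23, adjusted p above the threshold) ranged from -1.64 to 0.16 with a library left out, the positive value being without nip2_nip3 replicate 1.

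Class shares, none called, changed sign easily. On the log2 scale of the share, the difference became 0.066 for Tc/Mariner, 0.21 for Pao and 0.12 for Helitrons. With CELE45 left out it became 0.12, 0.33 and 0.42 percentage points in the same order. In a separate setting, with all repeat counts as the denominator and CELE45 kept, the difference for SINEs became -3.14 points. With a library left out the difference in points ranged from -4.24 to 5.33 for other DNA, -0.19 to 0.79 for hAT, -1.71 to 0.19 for MuDR, -3.14 to 2.13 for Tc/Mariner, -0.20 to 0.36 for LINE, -0.031 to 0.089 for other LTR, -2.69 to 0.086 for Gypsy, -2.31 to 1.57 for Pao, -2.19 to 1.23 for Helitrons, -7.41 to 20.7 for SINEs and -0.19 to 0.64 for unclassified families.

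Values of named families kept direction and side of the threshold in 187 of 201 tests with a library left out and 275 of 289 under other alternatives. Mean levels moved by more than 1 SD mainly with all repeat families (47 of 84) and CELE45 left out (45 of 84), which change the denominator. Depth limits families of few counts, Turmoil2 among them.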
